A study of Mus musculus with 16 samples.

Results

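Induced pluripotent stem (iPS) cells that had lost their reprogramming vector, the human artificial chromosome iHAC2, were compared with embryonic stem (ES) cells. The 4 vector-free lines, of C57BL/6 background, were F-B1 (from clone 2-B1), F-C5 (from 2-C6), F-E4 (from 2-E) and F-N7 (from 2-N), here called iHAC-free, and the 2 ES lines were B6ES and TT2. These 6 of the 16 arrays of the series were taken by their sample titles and not by any measured value. The parent clones of the iHAC-free lines were made by fusing iHAC2-bearing microcells with mouse embryonic fibroblasts (MEFs) and by transfecting the cells with miR-294 and miR-295. iHAC2 carried Klf4, c-Myc, Sox2 and Oct4 under the CAG promoter, further Oct4 copies and a p53 knockdown cassette, together with EGFP, and the cells that had lost it were sorted as EGFP-negative. B6ES has a C57BL/6 background and TT2 a C57BL/6 x CBA background, and both were kept on mitomycin C-treated ICR feeder fibroblasts with leukemia inhibitory factor. The other arrays held 4 iHAC2-iPS clones, the parents named above, 4 iHAC1-iPS clones, whose vector lacked the knockdown cassette and the additional Oct4 copies, the retroviral iPS line 20D17 (C57BL/6 x DBA) and C57BL/6 MEFs. Each line or clone was hybridised once, so n counts lines, the spread is that between clonal lines, and neither ES line has a replicate of its own.

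ES cells are derived from the inner cell mass of the blastocyst and hold the naive pluripotent state through a network around Oct4 (Pou5f1), Sox2, Esrrb and Klf4. Reprogramming factors bring a fibroblast to a similar state, in which the endogenous network takes over and vector-borne factors become dispensable. A vector that stays outside the chromosomes can be lost at cell division, so that a line without transgenes can be set beside ES cells directly. The question of the comparison was which genes still differed from ES cells in such lines and which of them only reflected the choice of ES line.

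The label of the lines was checked against marker genes, with each level given as log2 of the processed signal minus the 75th percentile of its array, so that 0 is that percentile. Of 10 ES cell markers, 9 had a tested probe and Nanog had none under that name. All 9 were well above background in all 4 iHAC-free lines, and none was called between the groups (median difference -0.06). The errors behind the calls came from all groups, iHAC1 and iHAC2 clones included, and were large for such markers (SE 1.03 for Utf1 and 0.80 for Dppa3). The absence of calls is therefore weak evidence of likeness. The summed level of the 9 markers, on the log2 scale, was 8.94 to 9.24 in the iHAC-free lines, 9.18 in B6ES, 8.78 in TT2 and 0.13 in MEFs. All 10 fibroblast markers were also above background in every one of the 6 lines, which grew on feeder fibroblasts, and the summed level was 7.33 to 8.24 in the iHAC-free lines, 5.79 in B6ES, 7.30 in TT2 and 8.45 in MEFs. B6ES thus carried the lowest fibroblast signal of the 6, and in these bulk samples fewer fibroblasts and less RNA per fibroblast cannot be told apart. Of the primitive endoderm and trophectoderm markers, 5 each with a tested probe, none was called. Among the iHAC-free lines the summed levels, 0.14 to 2.59 and -0.76 to 0.58, were highest in F-B1 for both. The ES lines stood at 0.17 (B6ES) and 2.91 (TT2) for primitive endoderm and at 0.66 and 0.64 for trophectoderm. The summed trophectoderm level of all 4 iHAC-free lines thus lay below that of both ES lines, in F-B1 only narrowly. Of the 11 tested genes of the longer trophectoderm list, 0 had all 4 iHAC-free lines below both ES lines.

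Each array held 43379 spots, with 0 saturated, and 59.4% to 63.0% of them were well above background in the iHAC-free lines against 61.8% and 63.8% in the ES lines. The arrays lay on 4 slides and were scanned on 2 days. The ES lines, 20D17, the iHAC1 clones and MEFs were scanned on the first day and the iHAC-free lines and iHAC2 clones on the second, with another version of the scanner software, so scan day and the contrast of iHAC-free with ES lines cannot be told apart. The position of iHAC1, iHAC2 and 20D17 is therefore given beside the main genes. The number of lines limits the precision: 4 lines against 2 can be split in 15 ways, so an exact permutation test cannot go below p = 0.0667, and the calls below rest on limma, which estimated the spread from all 16 arrays.

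Over 31415 tested probes, 115 were called between the iHAC-free and ES lines, which is 0.366% of those tested. A probe was called at a Benjamini-Hochberg adjusted p below 0.05 in limma and a difference of at least 2-fold, and 54 of the 115 were higher in the iHAC-free lines (0.172%) and 61 lower (0.194%). They stood for 110 genes, 5 of which (Uty, Syne2, Clybl, Pi4k2b and Wdfy1) had a pair of called probes that moved the same way. With each ES line apart, 57 probes were called against B6ES (0.181%, with 14 higher, 0.0446%, and 43 lower, 0.137%) and 53 against TT2 (0.169%, with 14 higher, 0.0446%, and 39 lower, 0.124%), while 41 differed between TT2 and B6ES (0.131%, with 16 higher in TT2, 0.0509%, and 25 lower, 0.0796%). In these single-line contrasts the lone ES array was assumed to vary like the other groups. The number of probes with an unadjusted p under 0.05 was 6439 against ES, 4669 against B6ES, 3564 against TT2 and 1249 between the ES lines.

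The count of 115 moved with the lines in it. It was 16 without F-N7, 25 without F-C5, 40 without F-B1 and 55 without F-E4, of which 14, 23, 34 and 44 were among the 115. Of the 115 probes, 19 stayed called when B6ES was the only ES line left and 16 when TT2 was. When only the 6 compared arrays were fitted, 9 probes were called, 5 of them among the 115, and with the slide as a random block 722 were called, 114 of them among the 115. The correlation within slides was estimated at -0.119 in the fit with the slide block, a negative value. The higher count is therefore not read as further differences.

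The probes were then put into classes by ES line, and the plot of the differences from each ES line shows them. The first class, 10 probes (0.0318%), was called against both ES lines in the same direction, and its count was 5 to 7 when 1 iHAC-free line was left out. Next, 20 probes (0.0637%) differed from B6ES alone, with TT2 called apart from B6ES in the same direction and within 2-fold of the iHAC-free mean. A further 17 probes (0.0541%) differed from TT2 alone by the same rule. All 10 probes of the first class were among the 115, and 0 of the 37 set by 1 ES line were, nor was any of the 115 called between TT2 and B6ES. The fit behind the 115 held B6ES and TT2 as a single group, so a gap between them widened its error. This separation therefore follows in large part from the fit and is no separate result.

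**Figure D1:**
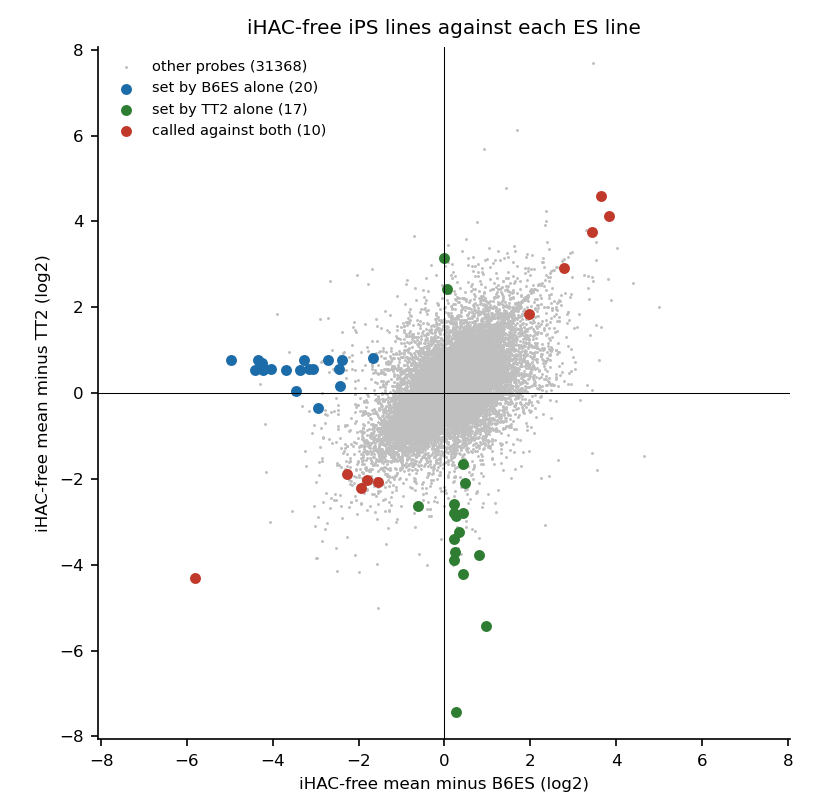
Each point is a probe, placed by its log2 difference of the iHAC-free mean from B6ES (horizontal axis) and from TT2 (vertical axis), over 31415 tested probes. The 10 probes called against both lines lie off both axes, the 20 set by B6ES alone lie along the horizontal axis on its negative side, and of the 17 set by TT2 alone 15 lie below 0 on the vertical axis and 2 above.

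Slc25a37, which encodes the mitochondrial iron importer mitoferrin 1, had the largest called increase over the ES lines. Its probe (chr14:70080666-70080725, mm9) stood at -3.65, -3.68, -3.20 and -3.30 in the 4 iHAC-free lines (F-B1 first, then F-C5, with F-E4 before F-N7, an order kept below) and at -7.09 in B6ES and -8.04 in TT2. All 4 iHAC-free lines lay above both ES lines, and neither ES array was well above background. The difference was 4.11 ± 0.25 (SE, n = 4 against 2, limma adjusted p = 2.0e-05), at least 4.71-fold higher. Here and below such a bound sets the brighter group against the lowest signal well above background in the dim group, or against the dim probe itself where that was higher. The iHAC2 clones lay at -2.49 to -1.99, the iHAC1 clones at -2.07 to -1.72 and MEFs at -0.98, while 20D17 lay with the ES lines at -8.05. The 12 arrays of iHAC-derived lines, from both scan days, were thus all above ES and 20D17 for this gene.

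Syne2, which encodes the nuclear envelope protein nesprin-2, showed the same order of groups. The probe at chr12:76997658-77000164 stood at -4.97, -4.51, -4.62 and -4.55 in the 4 iHAC-free lines, -7.44 in B6ES and -7.57 in TT2. It was higher by 2.85 ± 0.21 (adjusted p = 1.2e-04), at least 2.05-fold, and a second Syne2 probe that was above background on all 6 arrays was higher by 1.76 ± 0.33 (adjusted p = 0.044). On the first probe the iHAC2 clones lay at -4.17 to -4.00, the iHAC1 clones at -3.73 to -2.99 and 20D17 at -7.57.

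Uty, a Y-linked relative of the histone demethylase gene Kdm6a, and Capn11, a calpain protease of the testis, were also higher than both ES lines. Uty (chrY:433804-433863) stood at -3.82, -3.18, -4.06 and -3.87 in the iHAC-free lines against -7.58 and -7.86 in B6ES and TT2, a difference of 3.98 ± 0.24 (adjusted p = 2.0e-05, at least 3.89-fold). Capn11 (chr17:45769659-45769829) stood at -4.30, -3.71, -4.83 and -4.21 against -7.69 and -8.01, a difference of 3.59 ± 0.34 (adjusted p = 0.0011, at least 2.69-fold). The iHAC1 clones did not lie with the iHAC-free lines for either gene. They lay at -7.83 to -7.43 for Uty and -7.89 to -7.49 for Capn11, near the ES lines. For Capn11 all 8 arrays of the second scan day lay above all 8 of the first. The last of the 5 higher probes, in Tanc2, which encodes a synaptic scaffold protein, was not well above background on any of the 6 arrays, so its difference of 1.91 ± 0.22 (adjusted p = 0.0051) is given with no fold.

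BC006965 had the largest called decrease. Its probe (chr11:112549168-112549227) stood at -0.61 in B6ES and -2.12 in TT2 and was not well above background in any iHAC-free line, at -7.65, -6.30, -5.86 and -5.88. The difference was -5.06 ± 0.55 (adjusted p = 0.0039), at least 15.5-fold lower. MEFs (-1.05) and 20D17 (-2.25) lay near the ES lines, the iHAC2 clones at -6.95 to -6.45 and the iHAC1 clones in between at -4.81 to -3.26. All 8 arrays of the second scan day lay below all 8 of the first.

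Wdfy1, whose product binds the membranes of early endosomes, was the only one of the 10 probes above background on all 6 arrays. It was lower in the iHAC-free lines, at -0.73, -0.59, -0.56 and -0.67 against 0.91 in B6ES and 1.44 in TT2. The 3.52-fold difference (-1.81 ± 0.17, adjusted p = 0.0011) was larger than the range of the 4 iHAC-free lines and of the ES lines, and the second Wdfy1 probe gave -1.28 ± 0.18 (adjusted p = 0.020). The iHAC1 clones lay lower still at -1.93 to -1.68 and the iHAC2 clones at -1.15 to -0.77, with 20D17 at 0.67 and MEFs at 0.23. Wdfy1 and Tanc2 were outside the naming rule and were named after their values were seen.

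The other probes lower than both ES lines were dim. Flicr, a long non-coding RNA gene, stood at -6.69, -6.74, -7.27 and -6.87 in the iHAC-free lines against -4.94 and -4.69 (difference -2.08 ± 0.23, adjusted p = 0.0043, at least 1.42-fold). Fam184b stood at -7.39, -7.07, -7.00 and -7.21 against -5.36 and -5.14 (difference -1.92 ± 0.19, adjusted p = 0.0013, at least 1.05-fold). S100g, which encodes the calcium-binding protein calbindin-D9k, stood at -7.65, -7.22, -7.79 and -7.33 against -5.24 and -5.61 (difference -2.07 ± 0.24, adjusted p = 0.0046), and its brighter group did not reach the lowest measurable signal of the other. None of the 4 iHAC-free arrays was well above background for these genes. Background correction mattered for the dim genes. Under normexp with an offset of 50 the differences were 0.73 for Slc25a37, 0.54 for Uty, 0.28 for Capn11, 0.15 for Syne2, -0.60 for Flicr, -0.59 for S100g and -0.57 for Fam184b, all below 2-fold and no longer called, while BC006965 stayed called (-2.24, adjusted p = 0.0050).

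**Figure D2:**
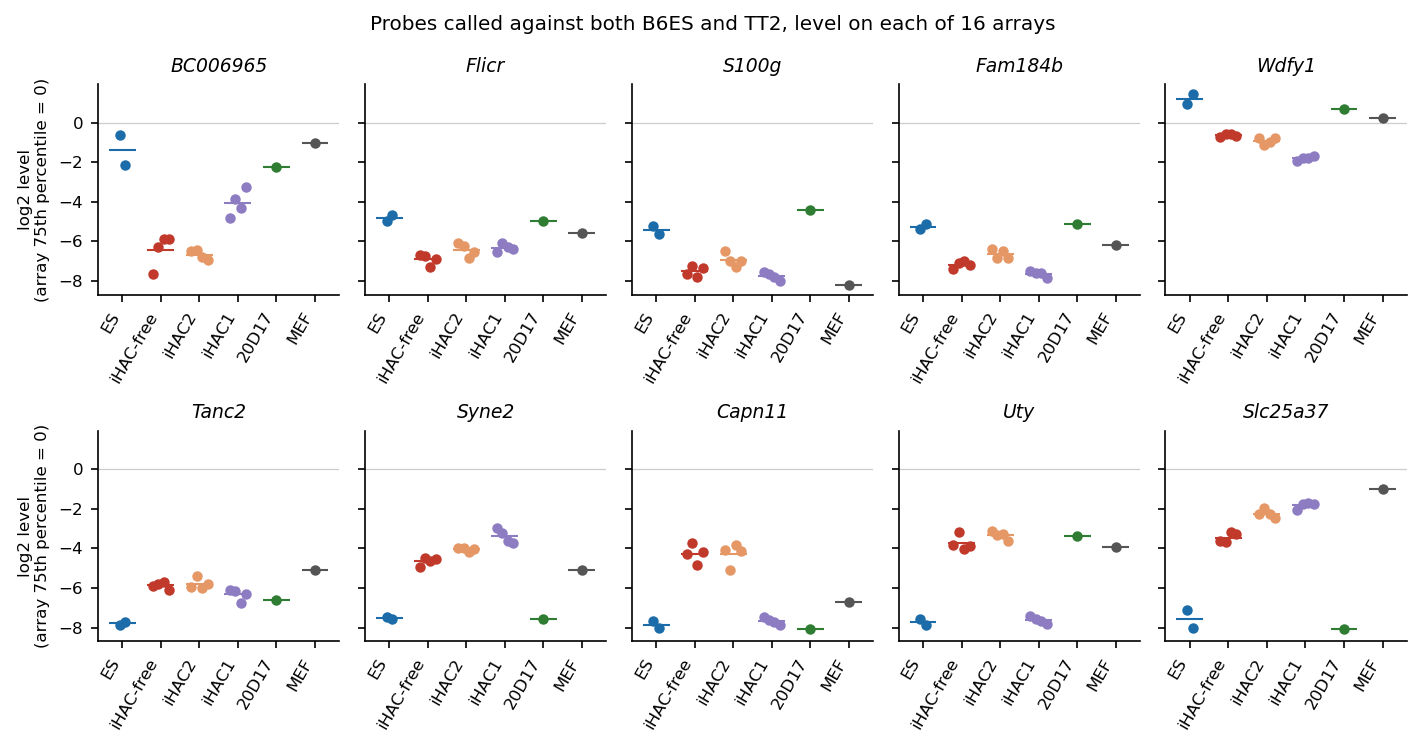
Level (log2, 0 = 75th percentile of the array) of the 10 probes called against both B6ES and TT2, with 1 point an array and a line at the group mean, in ES (2), iHAC-free (4), iHAC2 (4), iHAC1 (4), 20D17 (1) and MEF (1). The iHAC-free points lie apart from both ES points in every panel, and the iHAC1 points lie near the ES points for Uty and Capn11 and on the iHAC-free side of them for Slc25a37, Syne2 and Wdfy1.

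The 115 called probes were set against the other groups. All 115 had iHAC-free arrays that did not overlap the ES arrays, as had 20.6% of all probes on the higher and 23.5% on the lower side. The mean of the iHAC2 clones, the parents with the vector, was nearer the iHAC-free than the ES mean for 110 probes (95.7%, against 77.5% of all 13846 probes without overlap). The iHAC1 mean was nearer the iHAC-free lines for 53 (46.1%, against 44.5%), 20D17 for 24 (20.9%, against 33.0%) and MEFs for 66 (57.4%, against 52.4%). For 54 of the 115 (47.0%, against 13.5% of those without overlap and 5.97% of all probes) the 12 iHAC-derived arrays all lay apart from ES and 20D17, and for 30 (26.1%, against 8.24%) the 2 scan days did not overlap. The calls used the spread of all groups, so they favoured probes with a large difference and with iHAC1 and iHAC2 clones close together. These higher shares therefore follow in part from the calling rule.

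How well the 115 could be measured differed. In all, 63 were well above background on all 6 arrays, 19 on none of the iHAC-free arrays, 21 on neither ES array and 4 on none of the 6, with 8 mixed. The genes measured on all 6 arrays give folds without a bound and are described next.

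Fancg, a subunit of the Fanconi anaemia core complex for DNA repair, had the largest increase among them. It stood at -0.68, -1.23, 0.13 and -0.09 in the iHAC-free lines against -2.94 in B6ES and -3.17 in TT2, 6.01-fold higher (2.59 ± 0.37, adjusted p = 0.021). The iHAC1 clones lay at 0.02 to 0.75 and the iHAC2 clones at -0.93 to 0.03, above 20D17 at -3.21 and near MEFs at -0.89. The call was lost without B6ES, TT2 or F-N7 (adjusted p = 0.075, 0.10 and 0.073). Morn1 was 5.29-fold higher (2.40 ± 0.47, adjusted p = 0.049), at -2.33, -1.31, -2.11 and -1.41 against -4.11 and -4.28, with the scan days apart, and its call was lost when any 1 of the 6 lines was left out (adjusted p 0.056 to 0.19) and under quantile normalization (0.051).

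Pi4k2b, a kinase that makes phosphatidylinositol 4-phosphate, was lower on both its called probes. The first stood at -0.68, -0.46, -0.29 and -0.40 in the iHAC-free lines against 1.75 in B6ES and 1.49 in TT2, 4.22-fold lower (-2.08 ± 0.26, adjusted p = 0.0080), and the second gave -1.53 ± 0.24 (adjusted p = 0.034). The iHAC1 clones (-0.54 to -0.28), iHAC2 clones (-0.83 to 0.13) and MEFs (-0.92) lay with the iHAC-free lines, and 20D17 (1.57) lay with the ES lines. The call of the first probe was lost without B6ES (adjusted p = 0.064). The olfactory receptor gene Olfr1395 was 5.82-fold lower (adjusted p = 0.037) and the transcript ENSMUST00000106955 4.23-fold lower (adjusted p = 0.038), the latter with the scan days apart. Both calls were lost when any 1 of the 6 lines was left out (adjusted p 0.053 to 0.24).

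Further genes measured on all 6 arrays were picked from the 115 after their values were seen. Whether their calls held when a line was left out is not given gene by gene, here or in the next paragraph. Of the 115, only 14 stayed called without F-N7. The citrate lyase-like gene Clybl was higher on both probes, by 1.50 ± 0.26 and by 1.51 ± 0.29 (adjusted p = 0.036 and 0.044). Pycr1, an enzyme of proline synthesis, was higher by 1.87 ± 0.35, the ectonucleotidase gene Entpd4 by 1.52 ± 0.26 and Wwtr1, which encodes the Hippo pathway cofactor TAZ, by 1.16 ± 0.22. For all of these the 12 iHAC-derived arrays lay above ES and 20D17. Malat1, a nuclear long non-coding RNA, was higher by 1.32 ± 0.22, and Pgm1, a phosphoglucomutase, by 1.17 ± 0.22, both with the scan days apart.

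On the lower side the same selection held Cap1, an actin-regulating protein (by -1.49 ± 0.19), Npm3, a nucleophosmin relative (-1.68 ± 0.30), Med21, a Mediator subunit (-1.17 ± 0.16), Gpx1, a glutathione peroxidase (-1.03 ± 0.19), and the ribosomal protein gene Rpl14 (-1.06 ± 0.18). In each of them the 12 iHAC-derived arrays lay below ES and 20D17. Arid5b (-1.40 ± 0.27) and Khsrp (-1.20 ± 0.22) were lower in the iHAC-free lines with the iHAC1 clones nearer ES, and Ssr1 (-1.17 ± 0.14), Slc4a7 (-1.37 ± 0.22) and Ube3a (-1.03 ± 0.17) with the scan days apart. The adjusted p-values of these 10 genes in limma lay between 0.0080 and 0.044.

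The remaining large increases came from probes dim in the ES lines. Drc3, a subunit of the dynein regulatory complex of cilia, was at least 4.40-fold higher (adjusted p = 0.036), and the chemokine gene Ccl21a at least 2.97-fold (adjusted p = 0.038). Usp29, an imprinted gene of the Peg3 domain, stood at -3.92, -3.13, -4.04 and -3.07 against -6.26 and -5.83 and was at least 4.42-fold higher (adjusted p = 0.019), but another Usp29 probe, brighter on average, gave 0.09 ± 0.44 (adjusted p = 0.92). Tarm1, AK053080, Yipf7, 1110059G10Rik and Nepn were higher by at least 1.66-, 1.86-, 1.44-, 1.16- and 1.79-fold (adjusted p 0.034 to 0.044). For Drc3, Tarm1 and Nepn the scan days did not overlap.

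None of these 8 calls held under normexp, where the differences were 0.50, 0.28, 0.26, 0.09, 0.11, -0.04, 0.03 and -0.09, in the order Drc3, Ccl21a, Usp29, Tarm1, AK053080, Yipf7, 1110059G10Rik and Nepn, so that the last and Yipf7 turned sign. Quantile normalization ended the calls of Tarm1, Yipf7, 1110059G10Rik and Nepn. The Drc3 call was lost without TT2, F-B1, F-C5 or F-N7 (adjusted p 0.057 to 0.17), and its difference was 2.34 without TT2 and 3.91 without B6ES. The Ccl21a call was lost when any 1 line but F-E4 was left out and the Usp29 call without B6ES or F-N7 (adjusted p 0.058 to 0.17 and 0.059 to 0.11). The other 5 calls were each lost without B6ES, TT2 or F-N7 and at least 1 more line (adjusted p 0.052 to 0.22).

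Of the large decreases, the protocadherin gene Pcdha4 was at least 2.28-fold lower (adjusted p = 0.034) and the colorectal cancer-associated gene Mcc at least 1.71-fold (adjusted p = 0.034), with no iHAC-free array above background for either. Casq2, the cardiac calsequestrin, Lonrf2, Vps4b, an ATPase of endosomal sorting, and Acot4, a peroxisomal thioesterase, were lower by at least 1.23-, 1.01-, 1.14- and 1.47-fold (adjusted p = 0.04998, 0.044, 0.035 and 0.046). Wars2, a mitochondrial tryptophanyl-tRNA synthetase (-1.99 ± 0.33), and 5730510P18Rik (-2.06 ± 0.40) were lower with no bound on the fold. The calls of all 8 were lost under normexp, where the differences were -0.90 to -0.45, all below 2-fold, and when any 1 of the 6 lines was left out (adjusted p 0.052 to 0.28), with the exception that Pcdha4 stayed called without F-C5. Lonrf2 was also not called under quantile normalization and Casq2 not with the deposited table.

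Large differences were not always called. Gm11427 had the largest difference of all probes, 5.57 ± 1.16, and an adjusted p of 0.059, and it was picked after its value was seen. It stood at -0.43, 0.16, -1.58 and -0.10 in the iHAC-free lines, -3.95 in B6ES and -8.16 in TT2. AI662270, also on chromosome 11, was likewise apart between the ES lines, -0.74 in B6ES and -5.17 in TT2, and 0.75 to 1.20 in the iHAC-free lines (adjusted p = 0.12).

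Genes of the Y chromosome had the highest median difference of the 25 gene lists. Of 7 Y-linked genes with a tested probe, 6 were above 0, 2 were called (Uty and Uba1y) and the median difference was 2.11, against 0.02 over all 21178 genes, of which 51.1% were above 0 and 0.364% called. Uba1y, a Y-linked ubiquitin-activating enzyme gene, stood at -2.69, -3.72, -2.88 and -3.30 in the iHAC-free lines, -4.81 in B6ES and -6.46 in TT2 (difference 2.48 ± 0.39, adjusted p = 0.034). That call was lost without TT2, where the difference was 1.66, without F-B1, F-E4 or F-N7 (adjusted p 0.053 to 0.11) and under normexp (0.61), where Uty was not called either. Eif2s3y, a translation initiation factor gene, stood at 1.98, 0.61, 2.43 and -0.81 against -2.20 and -1.69 (adjusted p = 0.068), and the RNA helicase gene Ddx3y at -3.14, -4.30, -2.86 and -4.26 against -6.58 and -5.95 (adjusted p = 0.061). F-N7 was the lowest iHAC-free line for Eif2s3y, -0.81 against 2.43 in F-E4. Kdm5d (0.99 ± 0.73), Zfy2 (0.66 ± 0.44) and Zfy1 (-0.39 ± 0.42) did not pass the test.

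Over all 11 probes of the Y chromosome the median difference was 2.11, and 4 of them were called, all higher. By line it was 2.67 in F-B1, 1.58 in F-C5, 2.64 in F-E4 and 1.36 in F-N7. The iHAC1 clones lay with the ES lines for Eif2s3y (-2.98 to -1.62) and Uba1y (-7.80 to -7.41), and the iHAC2 clones and 20D17 with the iHAC-free lines. Xist, the RNA of the inactive X chromosome, stood at -4.98, -3.78, -4.75 and -3.99 against -6.08 and -5.35 and was not called (adjusted p = 0.28). The medians of the other chromosomes lay between -0.10 (chromosome 8) and 0.07 (chromosome 6). On chromosome 8 the median was -0.23 against B6ES and 0.01 against TT2, and TT2 itself was -0.33 from B6ES there, against -0.09 over all probes.

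The 20 probes set by B6ES alone were all higher in B6ES than in TT2 and the iHAC-free lines. The 10 largest were in AK089644, Ppp3r2, Scn3a, Phactr3, Ptprc, Mir124-2hg, Prf1, Ppp1r3e, AK033143 and Pdgfc, a mixed set in which Ptprc is the leukocyte antigen CD45, Prf1 the perforin of cytotoxic lymphocytes, Scn3a a neuronal sodium channel and Pdgfc a platelet-derived growth factor. Their levels in B6ES were -3.88 to -2.01, and no iHAC-free array was well above background for any of them. Ptprc stood at -3.11 in B6ES, -8.01 in TT2 and -7.67, -7.17, -7.30 and -7.28 in the iHAC-free lines, at least 4.63-fold lower than B6ES (adjusted p = 0.0010). Prf1 stood at -3.12 in B6ES and -7.89 in TT2 and was at least 4.58-fold lower (adjusted p = 1.9e-04), and AK089644 at least 9.89-fold (adjusted p = 2.3e-04).

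Many spots of these probes lay close together on the array. Of the 20, 17 were past the middle of its 532 rows, where 51.3% of all tested probes were, and 10 touched another of the set, in 4 patches. The patches held Pdgfc, Gm15328 and Prf1, then Scn3a, Sap18 and 4930414N06Rik, then AK089644 and Lhcgr, and last Mir124-2hg and Ppp1r3e. No probe set by TT2 alone or called against both ES lines touched another of its set. The part of array position in the B6ES differences was not tested. Of the 20, 0 were well above background on all 6 arrays, so a filter for all 16 arrays left out every one of them. Among the probes that this filter kept the rule found 0, which says nothing of the 20. Under normexp the rule found 1.

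**Figure D3:**
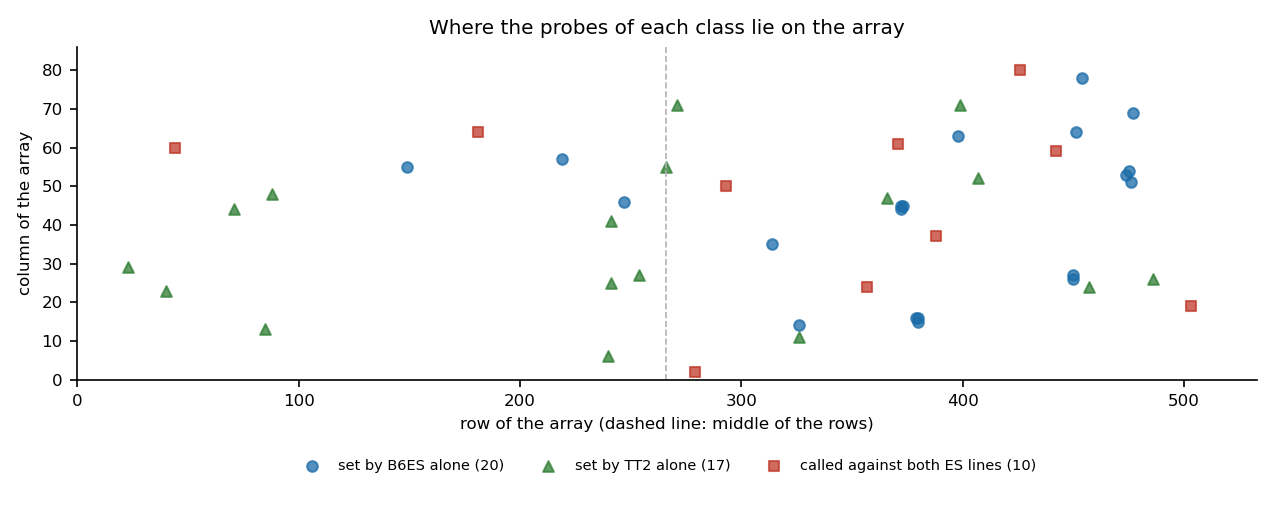
Row (horizontal axis) and column (vertical axis) of each probe on the array, for the 20 probes set by B6ES alone, the 17 set by TT2 alone and the 10 called against both ES lines. The B6ES probes lie past the middle of the rows in 17 of 20 cases, with 4 patches of touching spots, and the other classes show no touching spots.

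Of the 17 probes set by TT2 alone, 15 were higher in TT2 and 2 lower. Pdxdc1, a pyridoxal-dependent decarboxylase-like gene, had the largest difference of the class. It stood at 0.12 in TT2, -7.57 in B6ES and -7.47, -7.04, -7.59 and -7.12 in the iHAC-free lines, at least 43.3-fold lower than TT2 (adjusted p = 1.5e-06). 20D17, the other line with a mixed background, stood at 0.67, and the C57BL/6 iHAC1 clones (-7.76 to -7.41), iHAC2 clones (-7.12 to -6.31) and MEFs (-8.03) lay with B6ES. The same order was seen for NAP029346-1 (TT2 -0.99, 20D17 -2.12, B6ES -7.38), Defa-rs2 (TT2 -3.21, 20D17 -1.78, B6ES -7.32) and Kcnj3, a potassium channel gene (TT2 -4.62, 20D17 -3.89, B6ES -7.66). The iHAC-free lines were lower than TT2 by at least 20.0-, 4.32- and 1.62-fold for these (adjusted p = 0.0022, 6.6e-04 and 0.0022). Over the 17 probes 20D17 was nearer TT2 than the iHAC-free lines for 10 (58.8%, against 62.2% of all probes). The part of genetic background in these differences was not tested.

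Ipp, which encodes an actin-binding kelch protein, was measured on all 6 arrays. It stood at 2.56 in TT2, -0.66 in B6ES and -0.27, -0.16, -0.32 and -0.20 in the iHAC-free lines, 6.94-fold lower than TT2 (adjusted p = 0.0026), with 20D17 at -0.66. The probe TC1691665 lies next to it (chr4:116212071-116212130 against chr4:116210625-116210684, mm9) and was at least 6.84-fold lower than TT2 (adjusted p = 0.020). Kcnj3 (chr2:55447862-55447921) and ENSMUST00000112633 (chr2:55449735-55449794) were neighbours as well, and the latter was at least 4.73-fold lower (adjusted p = 6.6e-04). Pla2g4e, a cytosolic phospholipase, AK035648 and NAP057340-1 were lower than TT2 by at least 2.12-, 2.36- and 1.81-fold (adjusted p = 0.0012, 0.0084 and 0.0026). Of the 2 probes lower in TT2, AK036787 was at least 4.84-fold higher in the iHAC-free lines (adjusted p = 0.0019), and AK045549 was not well above background on any of the 6 arrays. Under normexp Defa-rs2, Kcnj3, Pla2g4e, AK035648, NAP057340-1, AK036787 and AK045549 were no longer called against TT2 (-1.18, -0.64, -0.94, -0.74, -0.76, 0.76 and -0.01), and TC1691665 was not called without F-E4 or F-N7 (adjusted p 0.057 to 0.063). Without F-N7 the class held 10 probes.

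None of the 9 pluripotency markers with a tested probe was called, and the tenth, Nanog, had no tested probe under that name. Esrrb, a nuclear receptor of the naive network, stood at 3.69, 3.57, 3.49 and 3.68 in the iHAC-free lines against 2.83 in B6ES and 3.07 in TT2, so all 4 lay above both (difference 0.66 ± 1.11, adjusted p = 0.78). Dppa5a gave 0.77 ± 1.18, Dppa3 -0.10 ± 0.80, Utf1 -0.08 ± 1.03, Dnmt3l -0.02 ± 1.00 and Tcl1 0.02 ± 0.83. The errors come from all groups, the iHAC1 and iHAC2 clones included. The last 4 had differences within them whose sign turned under another normalization or without a single line.

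Zfp42 (Rex1), a zinc finger gene of naive cells, was the marker with the largest difference, and the ES lines were themselves apart. It stood at 1.10 in B6ES, 4.25 in TT2 and 0.50, 0.66, 0.41 and 0.45 in the iHAC-free lines, a difference of -0.60 ± 1.00 from B6ES and -3.74 ± 1.00 from TT2 (adjusted p = 0.83 and 0.22). Another Zfp42 probe, brighter on average, differed less from the mean of the ES lines (-1.55). Khdc3, an oocyte and early embryo gene, stood at 1.42, 1.45, 0.46 and 2.13 against 3.41 in B6ES and 1.65 in TT2. Gbx2, a homeobox gene downstream of Stat3, stood at -0.27, -0.77, -0.46 and -0.17 against 1.03 and 0.12 (adjusted p = 0.67).

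None of the 4 factors that iHAC2 had carried was called. Myc was -2.48, -3.13, -2.61 and -2.56 in the iHAC-free lines, -0.85 in B6ES and -1.13 in TT2, so all 4 lines lay below both ES lines (-1.70 ± 0.53, adjusted p = 0.12), while the iHAC1 clones lay at 3.58 to 4.60 and the iHAC2 clones at 0.98 to 3.40. Pou5f1 showed the same order, at 2.77, 2.42, 2.55 and 2.51 against 3.56 and 4.00 (-1.21 ± 0.49, adjusted p = 0.19), with 3.89 to 6.41 in the iHAC2 clones. Klf4 (0.28 ± 0.56) and Sox2 (-0.0044 ± 0.61) had differences smaller than their errors, and the sign of both turned when B6ES was left out. Whether these probes see the endogenous or the vector-borne transcripts was not examined here.

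The genes of the anti-proliferative response were not called either. Cdkn2a, which encodes the cell cycle inhibitors of the Ink4a/Arf locus, stood at 0.10, 0.09, 0.02 and 0.14 in the iHAC-free lines against -1.07 and -0.39 (0.81 ± 0.34, adjusted p = 0.20). Trp53, the target of the lost knockdown cassette, stood at 1.86, 0.87, 1.86 and 1.16 against 2.16 and 1.99 (-0.64 ± 0.30, adjusted p = 0.25), and its target Cdkn1a at 1.70, 2.30, 2.02 and 2.02 against 1.12 and 1.98 (0.46 ± 0.26, adjusted p = 0.34). Of the 18 p53 targets, 11 were above 0 and none was called (median 0.21).

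Genes of the response to low oxygen and of glycolysis lay mostly above both ES lines. This program is switched on by hypoxia-inducible factors, which bind the core motif ACGTG or GCGTG, and it raises glucose uptake, glycolysis and the turnover of mitochondria. Of 16 genes, 14 were above 0 and the median difference was 0.92, 0.68 against B6ES and 0.93 against TT2, while TT2 and B6ES differed by -0.15. All 4 iHAC-free lines lay above both ES lines for 9 of the 16 (56.2%, against 20.4% of all genes) and below both for 1 (Car9). The median level of the 16 genes was 0.16 to 1.73 on the 8 arrays of the first scan day and 1.93 to 3.08 on the 8 of the second, without overlap, so scan day and group cannot be told apart for this list. One gene, Bnip3, was called. The promoters of the 3 genes with the largest differences are shown because the motif stands in each. The 250 bases before the transcription start are from RefSeq (GRCm38.p6), 5′ to 3′ on the strand of the gene, with every ACGTG or GCGTG on either strand (CACGT or CACGC on the other) in capitals, and ACGTG and its complement overlap in CACGTG.
Bnip3 (chr7:138909507-138909756, minus strand): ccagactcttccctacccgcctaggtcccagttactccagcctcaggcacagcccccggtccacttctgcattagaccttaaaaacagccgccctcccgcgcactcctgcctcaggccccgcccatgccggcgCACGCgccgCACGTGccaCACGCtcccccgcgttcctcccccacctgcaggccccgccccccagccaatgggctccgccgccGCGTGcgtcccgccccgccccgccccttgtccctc
Pfkp (chr13:6648772-6649021, minus strand): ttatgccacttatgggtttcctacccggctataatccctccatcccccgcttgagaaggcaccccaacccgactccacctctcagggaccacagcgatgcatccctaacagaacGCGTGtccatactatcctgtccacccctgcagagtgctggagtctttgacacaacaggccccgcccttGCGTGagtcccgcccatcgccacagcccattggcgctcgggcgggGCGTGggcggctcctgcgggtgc
P4ha1 (chr10:59323046-59323295, plus strand): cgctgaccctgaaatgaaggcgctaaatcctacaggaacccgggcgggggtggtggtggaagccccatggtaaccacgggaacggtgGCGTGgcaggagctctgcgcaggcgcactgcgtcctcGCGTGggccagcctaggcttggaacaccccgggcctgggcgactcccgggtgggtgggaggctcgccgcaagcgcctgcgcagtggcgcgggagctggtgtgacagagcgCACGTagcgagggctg
The motif occurred 5 times before Bnip3, 3 times before Pfkp and 3 times before P4ha1. Of the 16 genes, 14 had a promoter in the table, and 15 of their 17 promoters (88.2%) held the motif, against 12679 of 32851 promoters (38.6%) of the same length. The list was drawn from known genes of the low oxygen response, so this share follows from the choice of the list and is no result of these arrays. It stood before Car9, Ldha and Slc2a1 too, whose differences were -0.51, -0.07 and 0.04.

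Bnip3, a mitochondrial protein that directs mitophagy, stood at 3.85, 4.11, 3.63 and 4.15 in the iHAC-free lines, 2.33 in B6ES and 2.21 in TT2. The ES lines were close together and all 4 iHAC-free lines lay above them, 3.16-fold in the mean (1.66 ± 0.27, adjusted p = 0.034). The call was lost without B6ES, TT2, F-B1, F-C5 or F-N7 (adjusted p 0.054 to 0.13), with a difference of 1.59 to 1.72. The iHAC2 clones lay at 3.55 to 4.73, the iHAC1 clones at 2.83 to 3.09, 20D17 at 2.79 and MEFs at 0.21, and the scan days did not overlap.

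The glycolytic enzyme gene Pfkp stood at 2.50, 2.44, 1.83 and 2.19 against 0.76 and 0.62 (1.55 ± 0.48, adjusted p = 0.12), and P4ha1, a collagen prolyl hydroxylase gene, at 1.39, 2.06, 1.03 and 1.65 against 0.16 and 0.52 (1.19 ± 0.32, adjusted p = 0.087). All 4 iHAC-free lines lay above both ES lines for these genes, and neither was called. Egln3, an oxygen-sensing prolyl hydroxylase gene, gave 0.92 ± 0.26 (adjusted p = 0.098), the angiogenic factor gene Vegfa 0.98 ± 0.29 (0.10), the oxidase gene Ero1a 0.94 ± 0.30 (0.12), Adm, which encodes adrenomedullin, 1.00 ± 0.36 (0.15), Ndrg1 0.94 ± 0.35 (0.16) and the glucose transporter gene Slc2a3 0.91 ± 0.41 (0.24), with the adjusted p in brackets. The rest of glycolysis lay near 0, with Slc2a1 at 0.04 ± 0.46, Hk2 at 0.14 ± 0.33, Pdk1 at 0.13 ± 0.28 and Ldha at -0.07 ± 0.13. Car9, a carbonic anhydrase of hypoxic cells, gave -0.51 ± 0.29 (adjusted p = 0.34).

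**Figure D4:**
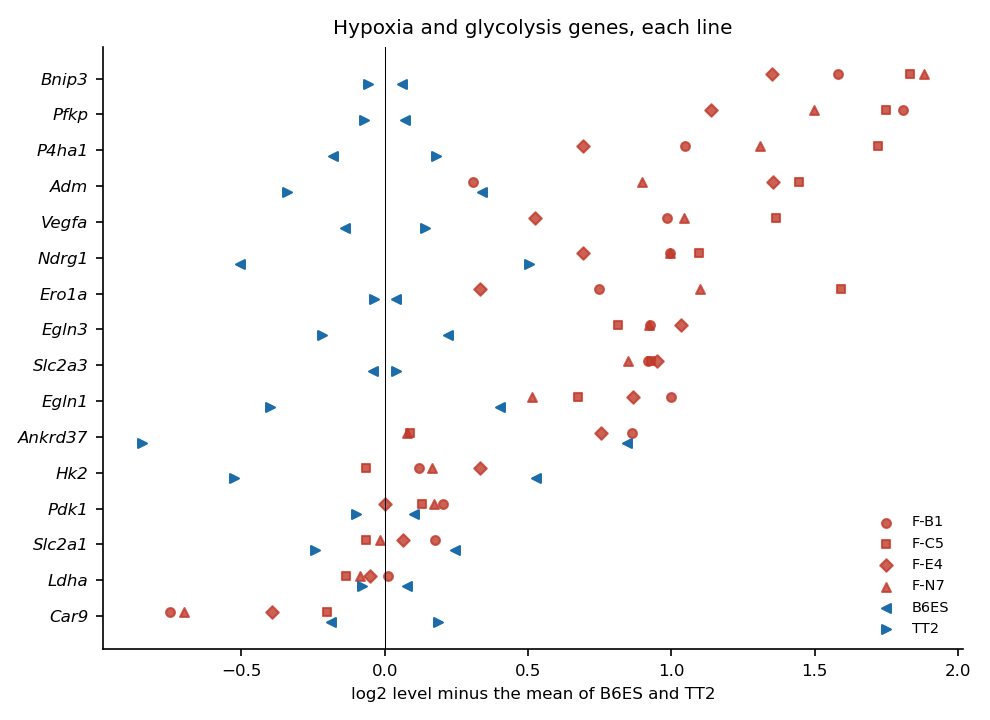
Level of each of 16 hypoxia and glycolysis genes (log2, minus the mean of B6ES and TT2) in the 4 iHAC-free lines (red) and the 2 ES lines (blue). The iHAC-free lines lie above both ES lines for Bnip3 down to Egln1 with the exception of Adm, where F-B1 lies between them, and below both for Car9.

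Lists that moved with the choice of ES line are shown in the plot of list medians. The 23 fibroblast genes had a median of 1.01 against B6ES and -0.02 against TT2, with TT2 above B6ES by 1.23, and none was called against the ES mean. The collagen gene Col1a2 stood at 6.34, 7.06, 5.96 and 6.58 in the iHAC-free lines, 4.21 in B6ES and 5.57 in TT2, and Col3a1 at 1.59, 2.80, 1.94 and 2.20, -0.38 and 1.92. For both genes B6ES lay lowest of the 6 lines, as in the fibroblast markers above.

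The 18 interferon and antigen presentation genes had medians of 1.12 against B6ES and 0.34 against TT2, and 9 of them (50%, against 20.4% of all genes) were above both ES lines in all 4 iHAC-free lines, none called. Tap1, a peptide transporter of antigen presentation, stood at -2.05, -0.96, -1.68 and -1.45 against -3.39 and -2.86 (1.59 ± 0.55, adjusted p = 0.14). Ifit1, an interferon-induced gene, gave 1.63 ± 0.95 (adjusted p = 0.35), and Usp18 stood at -5.78 in B6ES, -3.16 in TT2 and -2.95, -3.40, -3.33 and -3.58 in the iHAC-free lines. MEFs expressed these genes as well, with Tap1 at -0.10 and Ifit1 at 2.63. The part of feeder fibroblasts in these differences was not tested.

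Lists of early lineages changed sign with the ES line. The 9 mesoderm genes had a median of 0.38 against B6ES and -1.21 against TT2, and the 11 trophectoderm genes -0.77 and 0.44. Mixl1, a primitive streak gene, stood at -6.77 in B6ES and -2.64 in TT2, and at -4.21, -7.28, -6.70 and -7.41 in the iHAC-free lines, F-B1 highest. Plac1, a placental gene, showed the reverse between the ES lines, -1.21 in B6ES and -6.95 in TT2, with the iHAC-free lines at -5.75, -6.19, -4.29 and -4.24. The intestinal and trophectoderm regulator Cdx2 stood at -1.11, -2.01 and -1.99, -6.30, -4.06 and -4.01, so that F-B1 lay with the ES lines and F-C5 lowest. None of these was called in any contrast.

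The Dlk1-Dio3 imprinted cluster on chromosome 12, whose maternal non-coding RNAs are silenced in some iPS lines, was spread mainly between the ES lines. Mirg stood at -3.87 in B6ES, -0.38 in TT2 and -3.34, -3.05, -3.83 and -3.19 in the iHAC-free lines, and Rian at -0.90, 2.18 and 0.18, -0.23, -0.36 and -0.20. Meg3 stood at 1.48, 4.26 and 2.91, 4.15, 2.92 and 3.62, so that the iHAC-free lines lay between the ES lines. The median of the 5 measured genes was 0.74 against B6ES and -0.86 against TT2, and none was called (TT2 against B6ES for Mirg, adjusted p = 0.32). Of the 34 other imprinted genes, 16 were above 0 and the median was -0.15. Nnat, a neuronal imprinted gene, stood at -4.73, -5.78, -5.10 and -0.29 in the iHAC-free lines against -0.95 and -0.88, low in all but F-N7 (adjusted p = 0.17).

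**Figure D5:**
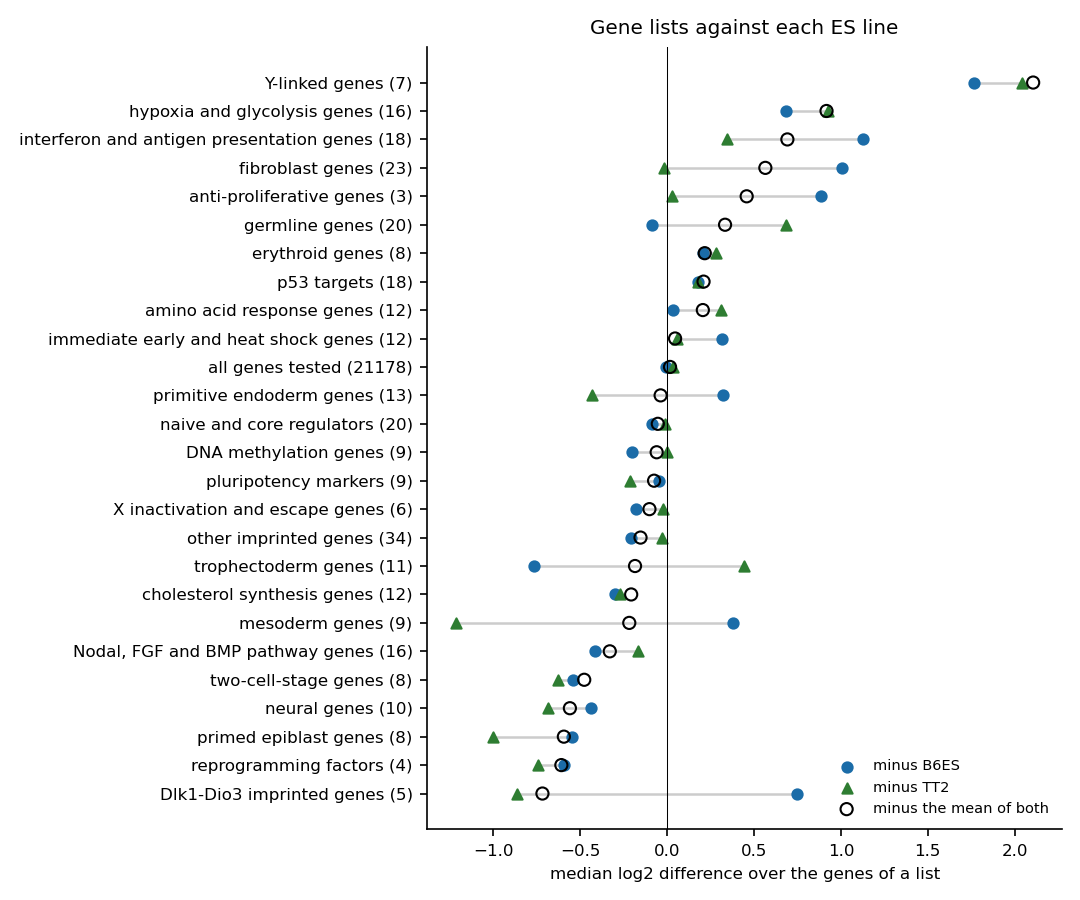
Median log2 difference of the iHAC-free mean from B6ES (blue circles), TT2 (green triangles) and the mean of both (open circles), for 25 gene lists and all genes tested, with the number of genes tested in brackets. The marks lie on the same side of 0 for the hypoxia and Y-linked lists and on opposite sides for the mesoderm, trophectoderm and Dlk1-Dio3 lists.

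Genes of the 2-cell-stage program, which a few ES cells in a culture switch on at a time, lay mostly below the ES lines. Of 8 genes tested, 7 were below 0 and 5 below both ES lines in all 4 lines (62.5%, against 23.7% of all genes), with a median of -0.48 and none called. Zscan4c stood at -5.01, -5.29, -6.40 and -5.33 against -2.61 in B6ES and -4.24 in TT2 (adjusted p = 0.076), with 20D17 highest at 0.24. Usp17la stood at -5.51, -6.84, -5.52 and -4.78 against -3.16 and -4.04, with 20D17 at -0.94. These gene families have near-identical copies that share probes, so the values stand for the family. The median level of the 8 genes was -4.89, -6.01, -5.96 and -5.36 in the iHAC-free lines. The lowest signal well above background on those arrays was -5.59 to -5.04, so much of the list lay near or under it.

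In the other lists few members or none passed the test. Of the 16 Nodal, FGF and BMP pathway genes 11 were below 0 (median -0.33), and the FGF antagonist gene Spry2 was called on 1 probe, at -1.08, -1.10, -0.96 and -0.88 against 0.25 and 0.06 (-1.16 ± 0.21, adjusted p = 0.042), though its brightest probe gave -0.41 ± 0.40 and the call was lost when any 1 of the 6 lines was left out (adjusted p 0.067 to 0.22). The 12 cholesterol synthesis genes had 11 below 0 and 5 below both ES lines (41.7%, against 23.7% of all genes), with a median of -0.21. The 8 primed epiblast genes had a median of -0.59 and the 10 neural genes -0.56, with Tubb3, a neuronal tubulin gene, at 1.85, 0.88, 1.33 and 0.87 against 2.50 and 2.49 (adjusted p = 0.10).

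Of the amino acid response genes, Fgf21, a stress hormone gene, was dim in both ES lines (-7.72 and -7.72) and stood at -4.41, -3.64, -4.76 and -3.96 in the iHAC-free lines, and was not called (adjusted p = 0.061). The 20 naive and core regulators (-0.05), 9 DNA methylation genes (-0.06), 6 X inactivation and escape genes (-0.10), 8 erythroid genes (0.22), 12 immediate early and heat shock genes (0.05), 13 primitive endoderm genes (-0.04) and 20 germline genes (0.33) had the median differences given in brackets, with none called on the probe used for its list. Among the germline genes Brdt, a testis bromodomain gene, gave 2.47 ± 0.63 (adjusted p = 0.078) and Fkbp6 -2.01 ± 0.84 (adjusted p = 0.21).

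Over all tested probes the iHAC-free lines were about as far from B6ES as from TT2. The root mean square log2 distance over all tested probes was 0.732, 0.966, 0.703 and 0.846 to B6ES, and 0.690, 0.970, 0.719 and 0.884 to TT2. The difference averaged -0.0042 ± 0.0335 (SD, n = 4, two-sided exact sign-flip test, p = 0.75, and 4 lines cannot reach p = 0.05), and F-B1 was the 1 line nearer TT2. The ES lines were 0.654 apart, and the iHAC-free lines 0.552 (F-B1 and F-E4) to 0.722 (F-B1 and F-C5) from each other. F-C5 lay farthest from both ES lines and F-E4 and F-B1 nearest.

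The probes that varied most among the iHAC-free lines were bright in F-C5 alone. Myh8, a myosin of developing muscle, stood at -7.40, 0.27, -7.44 and -7.08 in the iHAC-free lines, and Dnah5, a dynein of cilia, at -7.30, 0.07, -7.34 and -6.91. LOC637149, AK083356 and Lipo3 showed the same pattern, with F-C5 at 0.00, 0.13 and 0.07. The last 3 lie in column 75 of the array, in rows 8, 10 and 6, and none of the 5 was above background in the other 3 lines.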

How the data were processed

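Total RNA of 16 samples was labelled with Cy3 and hybridised to 1-colour Agilent whole mouse genome arrays, 1 array a line. The deposited scanner files held spot intensity values (Agilent Feature Extraction 10.7.1.1 on the first scan day and 10.7.3.1 on the second, processed signal after background subtraction), and the deposited value table, used as an alternative, held log2 values that the authors normalized in GeneSpring GX. In that table the median of every probe over the arrays lay within 0.01 of 0, the column medians ran from -0.33 to 0.28, and differences between arrays followed those of the scanner signal, so scale and direction are known and only the details of the normalization are not given.

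Control spots were left out, the processed signal was taken to log2, the 75th percentile of each array was subtracted, and spots of 1 probe were averaged. A probe was tested if any of the 16 arrays showed it well above background (31415, 76.3%), and 28 probes with a missing value were kept. limma 3.58.1 (R 4.3.3) was fitted to all 16 arrays in 6 groups, and in 7 with B6ES and TT2 apart, with 10 and 9 residual degrees of freedom. Calls needed an adjusted p (Benjamini-Hochberg) under 0.05 and a 2-fold change. The tests were checked on simulated data. Tables and figures were made with Python 3.11.15, pandas 2.3.3 and numpy 2.4.6.

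Genes named were the 15 largest called increases and decreases, the 10 largest in each direction set by 1 ES line, every gene of the pluripotency, reprogramming, anti-proliferative and Y-linked lists and Xist, the called or else the 2 most different genes of each other list, and the 5 probes of highest range among the iHAC-free lines, with the probe of largest difference shown. Gene list counts instead used the probe of highest mean, so a gene can have different values in both places. Other genes were picked after their values were seen. Some genes that this rule or choice would name are not reported here. The lines, the 25 gene lists and the tests were chosen with earlier results of these data known. Probe positions are those of the files (mm9). Alternatives were normexp, quantile normalization, the deposited table, other probe filters, the slide as a random block, only the compared arrays, 1 probe a gene and leaving out each array. Nothing says that lines were cultured in repeats, so p-values measure the spread between lines.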

Additional observations from a re-analysis of the deposited data

Results flagged for a closer look

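In 5 probes 1 of the 4 iHAC-free lines stood far from the other 3, as chance does in about 1 in 20 groups. Foxd3, a transcription factor gene of the primed epiblast, stood at -0.77 in F-B1 and at -1.70 to -1.62 in the other lines. Myh8 stood at 0.27 in F-C5 against -7.44 to -7.08, Dnah5 at 0.074 against -7.34 to -6.91, LOC637149 at 0.0028 against -7.34 to -6.91 and Lipo3 at 0.071 against -7.25 to -6.20. The last 4 were among the 5 probes chosen for the highest range in these lines.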

How the results depend on the processing

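No paired analysis was possible because the ES and iHAC-free lines share no origin and their replicate numbers were given in accession order. The number of probes called against ES (115) became 174 under normexp, 65 without a filter on dim probes, 292 with probes well above background on all 16 arrays, 233 with probes well above background on 1 of the 6 arrays, 722 with the slide as a random block and 9 with only the compared arrays, and 16 to 57 when 1 array was left out. The cause was not tested. Of the 115, 38 were among the 174 under normexp and 62 among the 65 without a filter. With the filter on all 16 arrays 58 were among the 292, and with that on 1 of the 6 arrays 111 among the 233. With probes well above background on all 16 arrays 4 were called against B6ES, 20 against TT2, 1 between the ES lines, 1 against both, 0 by B6ES alone and 1 by TT2 alone. With only the compared arrays these were 0, 12, 0, 0, 0 and 0. Under normexp 4 were called between the ES lines, 5 against both, 1 by B6ES alone and 3 by TT2 alone, and with 1 probe a gene 5 against both. Leaving out 1 array gave 31 to 57 against B6ES, 29 to 53 against TT2, 5 to 7 against both and 10 to 14 by TT2 alone. The difference of the distances to B6ES and TT2 (-0.0042) became 0.0405 with probes well above background on all 16 arrays, 0.00022 with probes that differ 4-fold between MEF and ES, 0.0101 under quantile normalization and 0.0350 under normexp, and -0.0194 to 0.0071 without 1 line.

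Signs turned under normexp for Yipf7 (-0.044), Nepn (-0.092), AK045549 (-0.012), Dnmt3l (0.018), Sox2 (0.011), Kdm5d (-0.25), Zfy2 (-0.28) and Kdm6a (-0.21), under quantile normalization for Dppa3 (0.072), Utf1 (0.068), Dnmt3l (0.17) and Sox2 (0.15), and with the deposited table for Sox2 (0.0099). Without 1 array the differences ranged from -0.30 to 0.097 for Dppa3, -0.20 to 0.052 for Utf1 and -0.086 to 0.024 for Dnmt3l. They ranged from -0.21 to 0.25 for Tcl1, -0.082 to 0.63 for Klf4 and -0.19 to 0.18 for Sox2. For Mirg the range was -2.97 to 0.51, for Plac1 -3.90 to 1.83 and for Mixl1 -3.76 to 0.38. For Meg3 it was -0.20 to 2.02, on another probe (0.91 with all arrays) than the one whose levels are given above.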
